A study of Mus musculus with 12 samples.

Results

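The genes described here are 8 members of the Hedgehog signalling pathway, the ligand gene Shh, the receptor genes Ptch1 and Smo, the ligand-binding inhibitor Hhip, the cytoplasmic inhibitor Sufu and the transcription factor genes Gli1, Gli2 and Gli3. They were taken by gene symbol from 33560 genes with counts, and all 8 passed the low-count filter that left 15443 genes for testing across libraries. The set was chosen by a measured value, because Gli2 was lower in the knockout, so every difference between knockout and wild type is given below as a description, with no test.

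RNA was sequenced from mouse glutamatergic neurons differentiated from embryonic stem cells and collected at day 21. Wild-type (WT) lines were compared with lines carrying the Daam1-MIC_KO allele (KO), in which a microexon of Daam1 is deleted. Daam1 is a formin, a protein that assembles actin filaments. Each genotype had 3 cell lines, and each of the 6 lines gave 1 library after water (vehicle) and 1 after 10 µM Y-27632, an inhibitor of the ROCK kinases, both for 2 h. The 4 groups were therefore WT with vehicle, KO with vehicle, WT with inhibitor and KO with inhibitor, with 3 libraries each. Whether each line came from 1 clone is not given in the sources used here. The series title speaks of hippocampus, whereas the sample labels describe cultured neurons.

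In Hedgehog signalling, a secreted ligand such as Sonic hedgehog binds Patched, which otherwise holds Smoothened inactive. Active Smoothened accumulates in the primary cilium and releases the Gli proteins from Sufu, so that Gli2 acts mainly as an activator and Gli3 mainly as a repressor of target genes. Gli1, Ptch1 and Hhip are themselves classical target genes, and the pathway is known for patterning the ventral neural tube and for expanding neural precursors.

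Gli2 and Gli3 encode related factors with a common DNA-binding zinc finger domain, and their start-site regions are shown because the levels of the 2 genes differed in pattern across the libraries. In GRCm38 the Gli2 gene is annotated at chr1:118834132-119053619 (minus strand) and Gli3 at chr13:15463235-15730026 (plus strand). The windows run from 250 bases before to 50 bases after the RefSeq start site in GRCm38.p6, chr1:119053570-119053869 on the minus strand for Gli2 and chr13:15463473-15463772 on the plus strand for Gli3. They are written 5′ to 3′, and capitals mark the GC box GGGCGG, searched on both strands.
Gli2: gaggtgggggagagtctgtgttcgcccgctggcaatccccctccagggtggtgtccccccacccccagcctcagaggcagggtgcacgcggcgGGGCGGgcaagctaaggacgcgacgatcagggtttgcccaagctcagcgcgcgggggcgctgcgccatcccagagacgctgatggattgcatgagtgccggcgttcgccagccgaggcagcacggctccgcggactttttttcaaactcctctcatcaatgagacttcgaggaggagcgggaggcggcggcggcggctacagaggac
Gli3: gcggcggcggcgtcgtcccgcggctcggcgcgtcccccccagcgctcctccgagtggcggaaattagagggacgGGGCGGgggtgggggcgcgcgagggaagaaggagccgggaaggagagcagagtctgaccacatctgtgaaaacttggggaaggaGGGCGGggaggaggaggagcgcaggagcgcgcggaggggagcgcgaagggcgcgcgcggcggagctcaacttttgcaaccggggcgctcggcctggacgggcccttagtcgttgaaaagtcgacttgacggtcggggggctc
The Gli2 window held 1 GC box, 157 bases before the start, and the Gli3 window held 2. A GC box was present in 35.7% of 32851 windows of the same length. A window was available for 6 of the 8 genes, all but Gli1 and Shh. The Gli consensus GACCACCCA, searched on both strands, had no exact match in any of the 6 windows, and none with 1 mismatch. In all windows an exact match occurred in 0.253% and a match with at most 1 mismatch in 6.74%.

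Library totals ran from 23253566 to 35012561 counts, and no pair of libraries was identical. CPM, a count scaled to the library total with edgeR's TMM factors, is used for 1 gene across libraries, and the deposited cRPKM, a read number per mappable length scaled to depth, for levels of different genes. Daam1 itself averaged 167 ± 14.7 CPM in WT with vehicle and 166 ± 14.2 CPM in KO with vehicle (SD, n = 3 each). A gene total cannot check the deletion of a microexon. Pan-neuronal markers summed to at least 3045 CPM in 11 libraries. The library of KO line 3 with inhibitor stood apart, with a pan-neuronal sum of 1014 CPM and a neural progenitor sum of 855 CPM, against at most 317 CPM in the others. Of the glutamatergic markers, Slc17a6, a vesicular glutamate transporter, averaged 301 CPM over the 12 libraries and the NMDA receptor subunit Grin2b 157 CPM, while Slc17a7, Tbr1, Neurod2 and Neurod6 averaged 0.29 to 1.29 CPM. Outside the library that stood apart, 8 glutamatergic markers summed to 451 to 678 CPM and 7 GABAergic markers to 546 to 751 CPM. Some listed glutamatergic markers were thus near 0 while Slc17a6 and Grin2b were not, and markers of inhibitory neurons were present. WT line 2 with vehicle and WT line 3 with inhibitor had the next highest progenitor sums, 281 and 317 CPM. Results that such libraries moved are also given without KO line 3 with inhibitor and WT line 2 with vehicle. That pair was chosen after seeing the data, and leaving it out keeps WT line 3 with inhibitor.

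The receptor gene Ptch1 had the highest mean level per length of the 8 genes, and the Gli genes the lowest. Ptch1 averaged 5.91 cRPKM over the 12 libraries, at the 45.6th percentile of the tested genes. Smo followed at 3.74 cRPKM, Sufu at 2.84 cRPKM and Shh at 2.23 cRPKM. Smo ranged from 1.65 to 12.86 cRPKM, a range that spans the means of Sufu and Shh, so these neighbours did not differ beyond their spread. Hhip averaged 0.592 cRPKM, Gli2 0.247 cRPKM, Gli3 0.228 cRPKM and Gli1 0.0875 cRPKM. The ranges of Gli2, 0.10 to 0.44 cRPKM, and Gli3, 0.08 to 0.51 cRPKM, covered each other almost entirely. Gli1 was at the 0.855th percentile of the tested genes, and 122 of its reads were counted over all 12 libraries, so its values carry the largest counting error of the set.

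**Figure D1:**
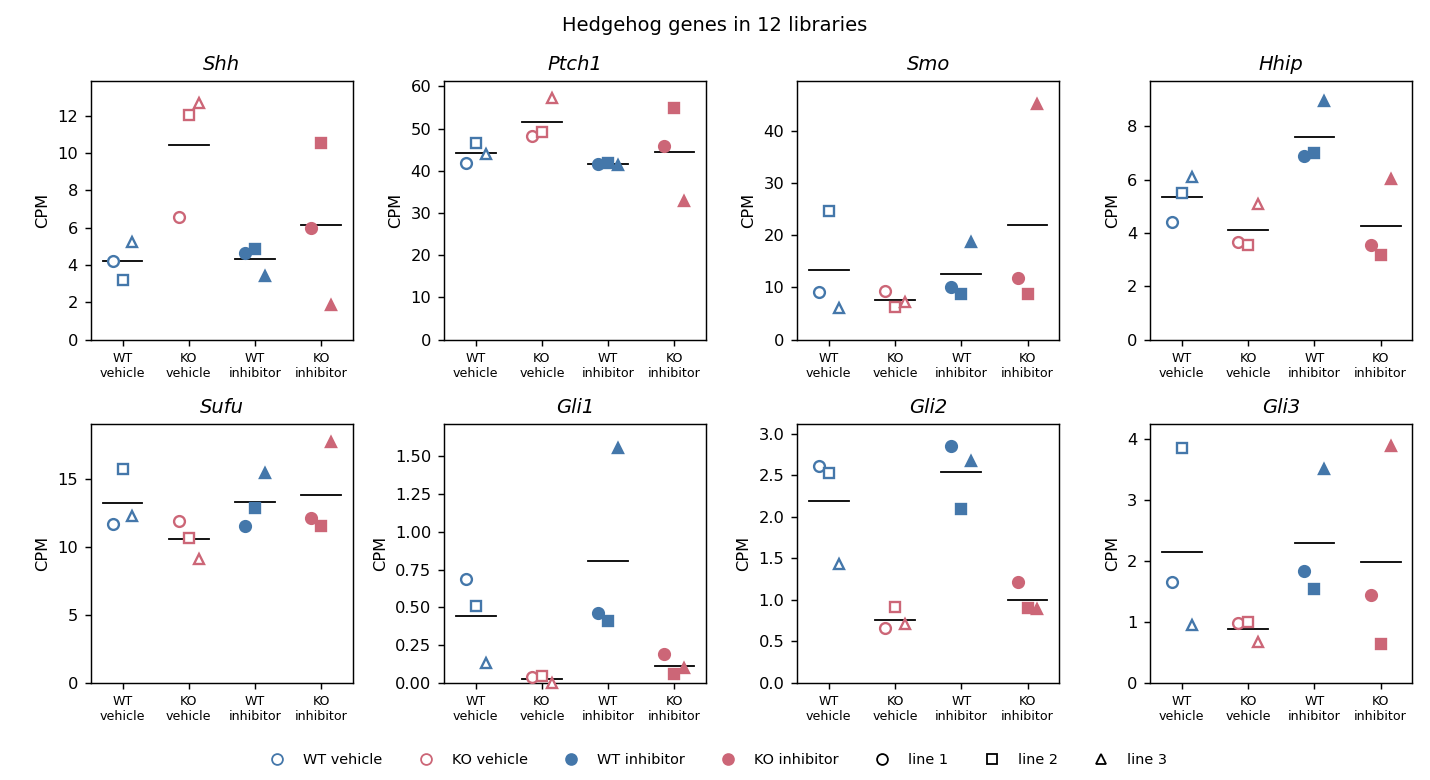
Level of each Hedgehog gene in CPM (vertical axes, from 0) in the 12 libraries, grouped by genotype and treatment; each point is 1 library, its shape gives the line number within the genotype and the horizontal bar is the group mean. The 6 KO libraries of Gli2 lie between 0.659 and 1.22 CPM, under all WT libraries.

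Gli2, the main transcriptional activator of the pathway, was lower in every KO library than in every WT library. Its counts were 76, 65 and 44 in WT lines 1 to 3 with vehicle and 18, 21 and 18 in KO lines 1 to 3. With inhibitor they were 87, 56 and 81 in the WT lines and 39, 31 and 28 in the KO lines. The WT library nearest to the KO values was line 3 with vehicle, and the groups did not overlap. Mean Gli2 was 2.19 ± 0.658 CPM in WT and 0.758 ± 0.133 CPM in KO with vehicle (SD, n = 3 each), 2.90-fold lower in KO. With inhibitor the means were 2.54 ± 0.398 CPM and 1.00 ± 0.188 CPM (SD, n = 3 each), 2.54-fold lower in KO. Over 6 libraries against 6, 0.505% of tested genes were lower in KO with no overlap and 0.285% higher. Gli2 was the only one of the 8 genes in either class, and since the set was chosen for its difference nothing is read from that count.

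The edgeR estimate of the Gli2 difference was a log2 value of -1.53 ± 0.30 (SE) with vehicle and -1.34 ± 0.30 with inhibitor. With the 2 libraries of each line added together, which gives 3 lines against 3, it was -1.39 ± 0.21. Over all alternative settings it ran from -1.76 to -1.38 with vehicle, from -1.51 to -1.22 with inhibitor and from -1.48 to -1.26 over line sums. In bulk RNA, fewer cells that express a gene and less RNA per cell cannot be told apart.

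Gli1, a transcription factor whose own transcription follows pathway activity, was also low in the KO libraries. Its counts were 20, 13 and 4 in WT lines 1 to 3 with vehicle, and 1, 1 and 0 in the KO lines. With inhibitor they were 14, 11 and 47 in the WT lines and 6, 2 and 3 in the KO lines. The genotypes did not overlap within either treatment, but over all 12 libraries KO line 1 with inhibitor, at 0.188 CPM, was above WT line 3 with vehicle, at 0.131 CPM. With each KO vehicle library set to a floor of 3 counts, mean Gli1 was at least 3.71-fold lower in KO with vehicle. With inhibitor, mean Gli1 was 0.114 ± 0.0667 CPM in KO and 0.808 ± 0.645 CPM in WT (SD, n = 3 each), and WT line 3 alone had 47 counts. The fitted log2 differences of Gli1 were -3.85 with vehicle, -2.80 with inhibitor and -3.01 over line sums. They depend on the prior count at such low values, and they kept their sign under every alternative. No KO library had more than 6 counts of Gli1, so it passed the low-count filter through its WT libraries alone.

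Gli3, best known as the repressor of the pathway, overlapped between the genotypes under both treatments. Its counts were 48, 99 and 29 in WT and 27, 23 and 17 in KO with vehicle, then 56, 41 and 106 in WT and 46, 22 and 122 in KO with inhibitor, each for lines 1 to 3. The highest value was in KO line 3 with inhibitor, 3.88 CPM, close to the 3.86 CPM of WT line 2 with vehicle. The log2 KO minus WT difference of Gli3 was -1.28 with vehicle and -0.21 with inhibitor. Without those 2 libraries it was -0.55 and -1.10, and with inhibitor it turned to 0.23 without WT line 3.

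Shh, the ligand gene, was higher in KO with vehicle. Its counts were 122, 82 and 160 in WT lines 1 to 3 and 179, 279 and 323 in KO lines 1 to 3, which as CPM did not overlap. The means were 4.20 ± 1.01 CPM in WT and 10.4 ± 3.37 CPM in KO (SD, n = 3 each), 2.48-fold higher in KO. With inhibitor the counts were 141, 130 and 103 in WT and 191, 364 and 59 in KO. KO lines 1 and 2 were above all WT libraries, and KO line 3, at 1.88 CPM, was the lowest of all 12. The log2 difference of Shh was 1.31 ± 0.53 (SE) with vehicle, 0.51 with inhibitor and 0.94 ± 0.27 over line sums. With inhibitor it rested on single libraries, at -0.13 without KO line 2 and 0.94 without KO line 3. Shh overlaps 2 annotated genes on the opposite strand, 9530036O11Rik and Gm26894, with a mean of 4.17 and 28.1 counts. The libraries were stranded per the labels, but whether counting used strand is not given in the sources used here, so reads of Shh and of these neighbours may not have been kept apart.

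Ptch1, the receptor and a target gene, differed little between genotypes. Its counts were 1219, 1199 and 1349 in WT and 1316, 1138 and 1457 in KO with vehicle, which after scaling to the library totals gave 44.2 ± 2.38 and 51.5 ± 4.90 CPM (SD, n = 3 each) with no overlap. With inhibitor the 3 WT libraries lay within 41.3 to 41.7 CPM, and the KO libraries spread from 32.8 CPM in line 3 to 54.8 CPM in line 2. The log2 difference of Ptch1 was 0.22 with vehicle and 0.0985 with inhibitor. With inhibitor it was -0.082 without KO line 2 and 0.28 without KO line 3. Over line sums it was 0.18 ± 0.094 (SE). Without both KO line 3 with inhibitor and WT line 2 with vehicle, it was 0.33 with inhibitor and 0.33 over line sums.

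Hhip, a membrane protein that binds and sequesters Hedgehog ligands, was lower in KO with inhibitor and overlapped with vehicle. With vehicle its counts were 128, 141 and 187 in WT and 100, 82 and 130 in KO. With inhibitor they were 210, 187 and 271 in WT and 114, 110 and 190 in KO. As CPM, all WT libraries with inhibitor were above all KO libraries with inhibitor, with means of 7.62 ± 1.16 and 4.26 ± 1.55 CPM (SD, n = 3 each). The log2 difference of Hhip was -0.38 with vehicle, -0.84 with inhibitor and -0.61 ± 0.26 (SE) over line sums. The value with inhibitor was -1.17 without KO line 3 with inhibitor.

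Among all tested genes, 7.62% were higher and 4.9% lower in KO with vehicle with no overlap of libraries. With inhibitor the shares were 3.51% higher and 7.03% lower. Of the 8 genes, Shh and Ptch1 were higher and Gli1 and Gli2 lower with vehicle, and Gli1, Gli2 and Hhip were lower with inhibitor. Since the set was chosen on this contrast, nothing is read from these counts.

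Smo, the signal transducer, and Sufu, the Gli-binding inhibitor, overlapped between the genotypes under both treatments. Smo counts were 264, 631 and 185 in WT and 255, 146 and 184 in KO with vehicle, then 307, 234 and 565 in WT and 379, 302 and 1421 in KO with inhibitor. KO line 3 with inhibitor reached 45.2 CPM, against at most 24.6 CPM in the other libraries. The log2 difference of Smo was -0.79 with vehicle and 0.81 with inhibitor, and 0.016 and -0.23 without that library and WT line 2 with vehicle. Sufu ranged from 9.10 to 17.7 CPM over the 12 libraries, with log2 differences of -0.32 with vehicle and 0.054 with inhibitor. The first was -0.18 without WT line 2 with vehicle, and the second -0.17 without KO line 3 with inhibitor.

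**Figure D2:**
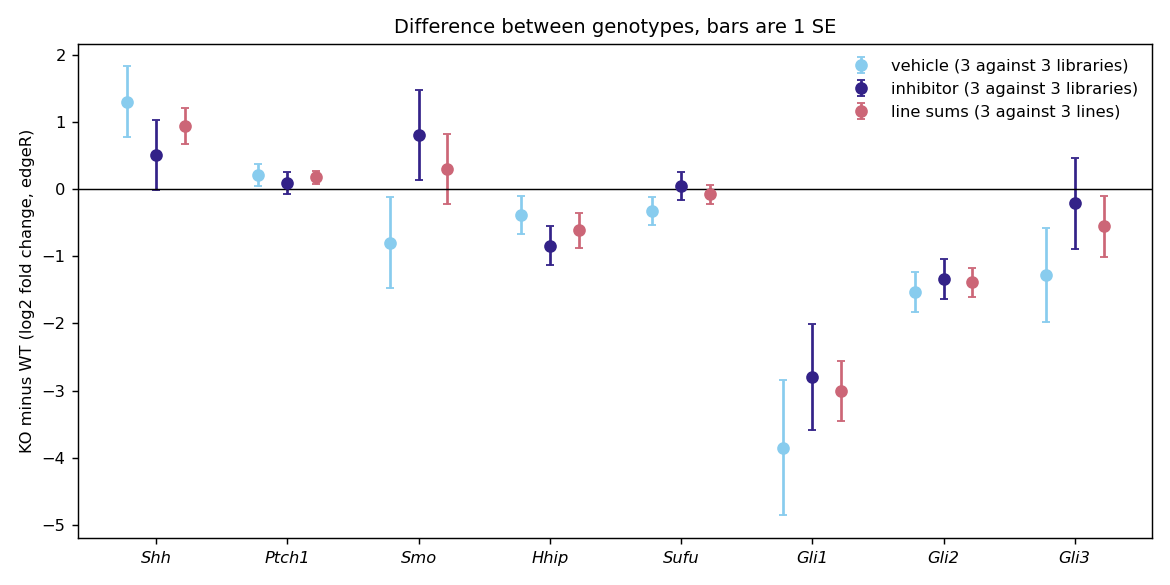
KO minus WT difference of each Hedgehog gene as a log2 fold change from edgeR (vertical axis), with vehicle, with inhibitor and over line sums; points are estimates and bars are 1 SE. Gli2 lies between -1.53 and -1.34 in the 3 comparisons, while Smo is at -0.79 with vehicle and 0.81 with inhibitor.

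With edgeR's quasi-likelihood test and Benjamini-Hochberg adjustment over all tested genes, 0% of genes passed an adjusted p of 0.05 in any of the 7 comparisons of genotype or inhibitor. At an unadjusted p under 0.05 there were 307 genes for KO against WT with vehicle, 540 with inhibitor and 426 over line sums. These counts moved with single libraries, to 1336 and 1481 without KO line 3 with inhibitor, to 170 with vehicle without WT line 2 with vehicle, and to 2136 over line sums without KO line 3. DESeq2 called 11 genes (0.0712%), 18 genes (0.117%) and 87 genes (0.541%) in the same comparisons. Gli2 was among the DESeq2 calls in all 3, and Gli1 in the line sums. The set was chosen on this contrast, so these calls are no further evidence.

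The inhibitor contrasts were not used to choose the genes. They share libraries with the KO minus WT difference that was used, so they are not independent of the choice. Of the 8 genes, none passed the threshold in WT, in KO, over both genotypes or in the interaction of genotype and inhibitor, and none had an unadjusted p under 0.05 in edgeR. Over all genes, 47, 1088, 175 and 185 had such a p in these 4 contrasts, and DESeq2 called 0 in each. The count in KO was 180 without KO line 3 with inhibitor and 4117 without KO line 2 with inhibitor, and that over both genotypes was 1440 without WT line 2 with vehicle.

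Hhip with inhibitor in WT had the smallest p in that contrast. Its 3 WT libraries with inhibitor, 6.90 to 8.96 CPM, were above those with vehicle, 4.40 to 6.10 CPM, and the edgeR log2 difference was 0.51 ± 0.29 (SE, unadjusted p = 0.102, adjusted p = 1.00). Hhip was higher in 3 of 3 WT lines, by 0.35 to 0.64 in log2 CPM. The edgeR p-values given for the inhibitor do not use the pairing of libraries by line. With cell line in the fit, the Hhip difference in WT was 0.52. In KO the log2 difference of Hhip was 0.055 ± 0.29 (SE, edgeR adjusted p = 0.907), and the interaction was -0.46 ± 0.40 (edgeR adjusted p = 0.808).

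Gli1 was higher with inhibitor in 3 of 3 KO lines, at 1, 1 and 0 counts with vehicle and 6, 2 and 3 with inhibitor. In KO line 2 Gli1 went only from 0.0433 to 0.0578 CPM, and at such counts its direction is uncertain. Over both genotypes its log2 difference was 1.40 ± 0.66 (SE, edgeR adjusted p = 0.767), and in WT it was 0.87 ± 0.71, which was -0.012 without WT line 3 with inhibitor. Ptch1 in WT was the other gene without overlap, 41.3 to 41.7 CPM with inhibitor against 41.9 to 46.7 CPM with vehicle, a log2 difference of -0.090 ± 0.16 (edgeR adjusted p = 1.00). Such separation was seen for 3.04% of tested genes upward and 2.93% downward in WT, and for 3.19% upward and 5.65% downward in KO.

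Smo had the smallest p in KO, with a log2 difference of 1.52 ± 0.69 (SE, unadjusted p = 0.0512, edgeR adjusted p = 0.474). It was 0.433 without KO line 3 with inhibitor. Gli2 with inhibitor differed by 0.21 ± 0.29 in WT and 0.40 ± 0.30 in KO on the log2 scale (SE, edgeR adjusted p = 1.00 and 0.519). The interaction for Gli2 was 0.19 ± 0.41 (edgeR adjusted p = 0.861). Not one of the 8 genes was higher with inhibitor in 6 of 6 lines, a pattern seen in 0.382% of tested genes.

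**Figure D3:**
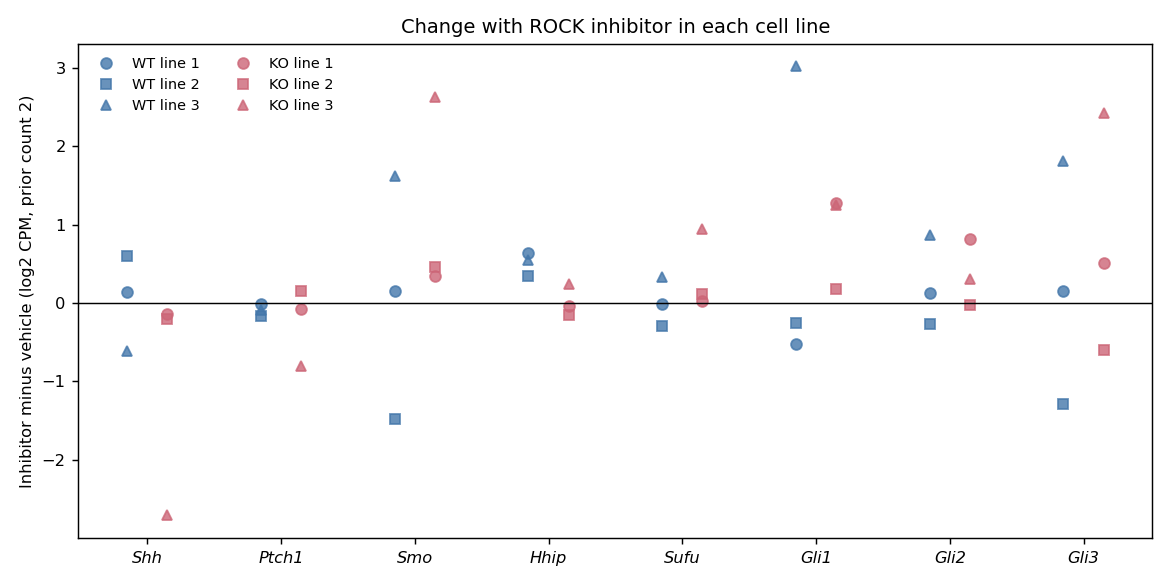
Inhibitor minus vehicle difference of each Hedgehog gene within each of the 6 cell lines, in log2 CPM with a prior count of 2 (vertical axis); colours give the genotype and shapes the line. Smo, Gli3 and Shh spread widely, with KO line 3 at 2.64, 2.42 and -2.71.

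The wider pathway was read from lists that leave out the 8 genes, and edgeR called none of their tested genes. Of 7 tested genes for ligands and their release, 5 were higher and 2 lower in KO over line sums, with a median log2 difference of 0.12 against 0.045 for all genes. With vehicle 2 were higher and 5 lower (median -0.63), and with inhibitor 6 were higher and 1 lower (median 0.24). Both counts turned with single libraries. Without WT line 2 with vehicle, 6 were higher and 1 lower with vehicle (median 0.080). Without KO line 3 with inhibitor, 3 were higher and 4 lower with inhibitor (median -0.065). Ihh, another Hedgehog ligand, had a log2 difference of 1.32 ± 1.04 (SE), and 629 of its counts were in KO line 3 with inhibitor, against at most 113 in any other library. Of 10 receptors and co-receptors, 3 were higher and 7 lower, with a median of -0.20. With vehicle 1 was higher and 9 lower (median -0.34), and with inhibitor 5 were higher and 5 lower (median 0.14). Without WT line 2 with vehicle and KO line 3 with inhibitor, 6 of 10 were lower with vehicle, 9 of 10 with inhibitor and 10 of 10 over line sums (median -0.29). Boc, a co-receptor, had a log2 difference of -0.37 ± 0.36, and Gas1, another co-receptor, 0.25 ± 0.30. Gpc3, a glypican that can compete for ligand, had 0.087 ± 0.63.

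Of 36 genes of signal relay and Gli regulation, 15 were higher and 21 lower, with a median of -0.039. With vehicle 20 were higher and 16 lower, and with inhibitor 9 were higher and 27 lower. Without WT line 2 with vehicle and KO line 3 with inhibitor, 19 were higher and 17 lower with vehicle. With inhibitor 21 were then higher and 15 lower. Prkaca, a catalytic subunit of protein kinase A, which phosphorylates Gli proteins, had a log2 difference of -0.063 ± 0.18 (SE). Stk36, a kinase related to Drosophila Fused, had -0.28 ± 0.17. Of 43 primary cilium genes, 22 were higher and 21 lower, with a median of 0.0016. That balance joined opposite counts, 34 higher and 9 lower with vehicle (median 0.080) and 9 higher and 34 lower with inhibitor (median -0.12). Without the same 2 libraries they were 21 higher and 22 lower with vehicle, and 24 higher and 19 lower with inhibitor. Kif3a, a motor subunit of transport in the cilium, had -0.12 ± 0.18.

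Of 22 tested Gli target genes, 8 were higher and 14 lower over line sums, with a median of -0.061. With vehicle 3 were higher and 19 lower, with a median of -0.62 against -0.0100 for all genes, and with inhibitor 10 were higher and 12 lower, with a median of -0.018. These medians moved with 2 of the 3 libraries with the highest progenitor sums. The other of the 3, WT line 3 with inhibitor, was kept in every list count given here. Without WT line 2 with vehicle, which also had the highest mesenchymal sum, 7 were higher and 15 lower with vehicle (median -0.090). Without KO line 3 with inhibitor, 2 were higher and 20 lower with inhibitor (median -0.61). Without both, 3 were higher and 19 lower over line sums (median -0.38). Ccnd2, a cyclin, had 1899, 6220 and 1132 counts in WT and 2088, 1136 and 1576 in KO with vehicle. Bmp4, a secreted growth factor, had counts of 143, 132 and 204 in WT and 112, 67 and 84 in KO with vehicle. Its log2 difference over line sums was -0.69 ± 0.18 (SE). Foxc1, a forkhead factor of mesenchyme, had -1.09 ± 0.48. Olig2, a factor of motor neuron and oligodendrocyte precursors, had 2.72 ± 1.02, with 373 counts in KO line 3 with inhibitor and at most 33 elsewhere. Foxa2, the floor plate factor, had 0.89 ± 1.45, with 3043 counts in that library and at most 758 elsewhere.

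**Figure D4:**
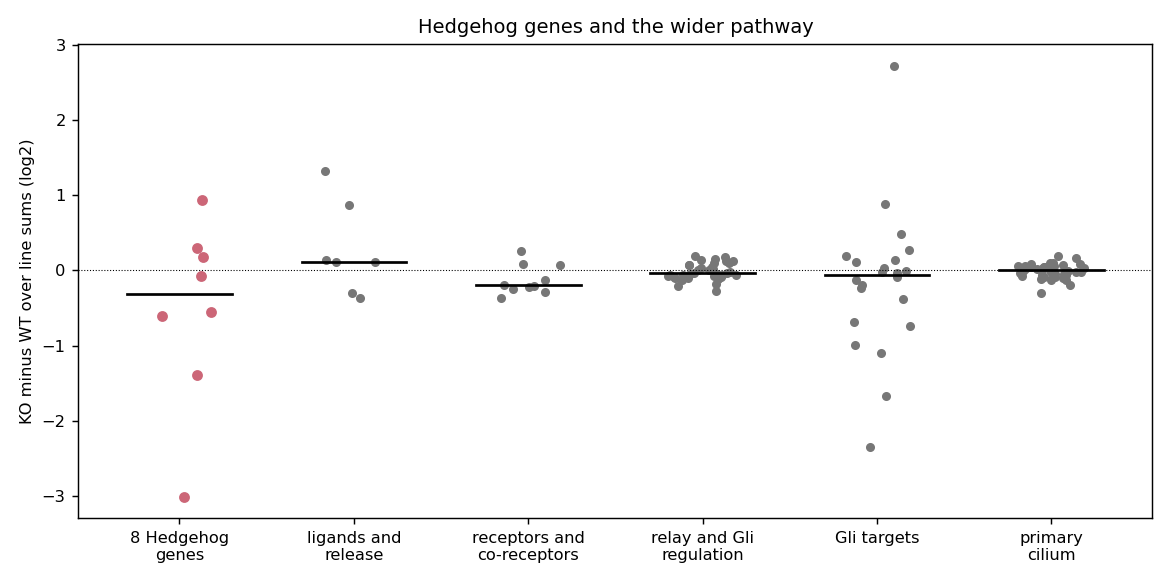
KO minus WT log2 difference over line sums (vertical axis) for the 8 Hedgehog genes and for the tested genes of 5 wider pathway lists; each point is 1 gene and the bar is the list's median. Relay and cilium genes lie near 0, and Olig2 at 2.72 is the highest Gli target.

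Marker genes of other cells moved with some of these values. Of 10 mesenchymal and fibroblast markers, 8 were lower in KO over line sums, with a median log2 difference of -2.57 against 0.045 for all genes, and 7 had an unadjusted p under 0.05 in edgeR while none was called. Without KO line 3 with inhibitor and WT line 2 with vehicle, 9 were lower over line sums (median -1.88). In that setting edgeR called 1, the proteoglycan gene Dcn. The sum of all 10 markers was 468 to 1555 CPM in WT and 468 to 637 CPM in KO with vehicle, which overlapped. With inhibitor it was 664 to 1119 CPM in WT and 188 to 575 CPM in KO. Thy1, which neurons also express, was left out after these values were seen. The sum without it was 127 to 1213 CPM in WT and 40.1 to 126 CPM in KO with vehicle. With inhibitor that sum was 300 to 810 CPM in WT and 69.7 to 93.7 CPM in KO. Col1a1, a fibrillar collagen, averaged 216 CPM in WT and 22.4 CPM in KO with vehicle. The library of WT line 3 with vehicle had the lowest sum of the WT libraries, 127 CPM, and also the lowest WT values of Gli1 and Gli2. At a nearly equal sum of 126 CPM, KO line 3 with vehicle had 0.706 CPM of Gli2, against 1.44 CPM in that WT library. These are single libraries, and their sums were close only without Thy1. With Thy1 they were 637 CPM in that KO library and 468 CPM in that WT library. No marker of the list was at 3 counts or fewer in every library of a group. The part of these cells in the Gli2 and Gli1 differences was not tested.

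The 3 libraries with the highest progenitor sums, KO line 3 with inhibitor, WT line 3 with inhibitor and WT line 2 with vehicle, were also the 3 highest for Gli3 and for Smo. Gli2 was low in the first of these, at 0.891 CPM, and high in the other two, at 2.68 and 2.53 CPM. The same 3 libraries also had the 3 highest sums of astrocyte, oligodendrocyte lineage, ventral neural tube, endothelial, smooth muscle, cartilage and microglia markers. The part of progenitor cells or of these other cells in the Smo and Gli3 values was not tested.

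**Figure D5:**
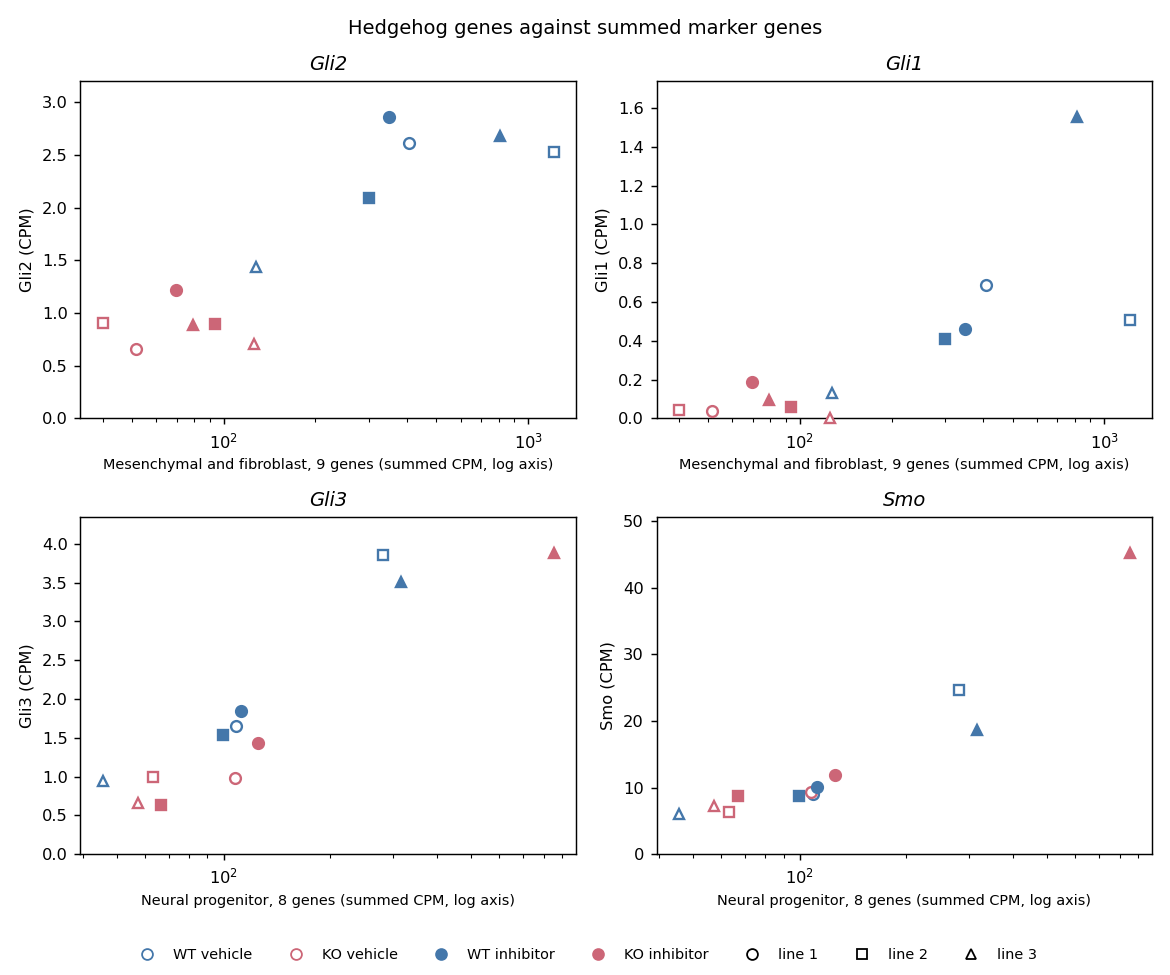
Gli2 and Gli1 (CPM, vertical axis) against the summed CPM of 9 mesenchymal and fibroblast markers, and Gli3 and Smo against that of 8 neural progenitor markers (horizontal log axes); each point is 1 of the 12 libraries. The 9 markers leave out Thy1, a choice made after the values were seen. KO libraries lie at low sums of the 9 markers and low Gli2. KO line 3 with inhibitor has both the highest progenitor sum, 855 CPM, and the highest Smo, 45.2 CPM.

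Across the 12 libraries, which share lines and genotypes, the gene most like Gli1 in log2 CPM was Gli2 (Pearson r = 0.938). The genes most like Gli2, among tested genes with a mean of at least 1 CPM, which leaves out Gli1, were Adamts2, a procollagen peptidase (r = 0.922), Ccn3, a matricellular protein (r = 0.912), Dnm3os, a noncoding RNA (r = 0.902), Cpz, a carboxypeptidase (r = 0.902), and Fbn2, a fibrillin (r = 0.900). These lists are unstable, since with Spearman's rank correlation 1 of the 5 genes most like Gli2 was the same, and without the 2 libraries that stood apart 0 were. With the genotype means subtracted, Peg12 had the highest r with Gli2, 0.863. The gene most like Gli3 was Rcsd1 (r = 0.992), and the one most like Ptch1 was Rassf8 (r = 0.976). Among the 8 genes, Gli3 and Smo had r = 0.862, Ptch1 and Shh 0.889, Gli3 and Shh -0.899, and Gli2 and Smo 0.171. Over the 10 libraries without the 2 that stood apart, Gli2 and Smo had r = 0.476, and Gli1 and Gli3 had 0.933 against 0.688 over all 12. These are descriptions.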

How the data were processed

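Poly(A) RNA of 12 libraries was sequenced, and reads were mapped to mm10 per the submitters' processing notes. The authors deposited 1 table per library with a raw read count and a cRPKM, an RPKM corrected for mappable length, for 36902 genes, of which 3342 had no value. The aligner and counting settings are not given in the sources used here. Symbols and coordinates came from GENCODE M21 (33371 identifiers matched), promoters from RefSeq. Counts were fitted with edgeR 4.0.16 (TMM, low-count filter, quasi-likelihood test) over 12 libraries in 4 groups (15443 genes) and over line sums (16090 genes). Each edgeR SE is the absolute log2 difference divided by the square root of the quasi-likelihood F value. For KO against WT it is given as description only. DESeq2 1.42.0 was an alternative. Scripts were tested on simulated data. The 8 genes, the lists and the tests were chosen with earlier results of these data known. Genes named from a list were taken from up to 4 with the largest difference over line sums, among those with a mean of at least 1 CPM, and up to 3 with the highest mean cRPKM. Genes picked after their values were seen were Col1a1, Slc17a6, Grin2b and the low glutamatergic markers. The mesenchymal sum without Thy1 was also chosen after the values were seen. Replicates are separate cell lines per the labels, and vehicle and inhibitor libraries of a line are paired by it. The correlation of their deviations from group means ran from -0.723 in WT line 3 to 0.574 in KO line 2.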

Additional observations from a re-analysis of the deposited data

How the results depend on the processing

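edgeR called 0 genes in each comparison, leaving out any 1 library included. DESeq2 called 11 with vehicle, 18 with inhibitor and 87 over line sums. Over line sums 2 were called with no filter on low counts. Without KO line 3 with inhibitor and WT line 2 with vehicle, chosen after seeing the data, 88 of 16006 tested genes were called over line sums. Gli2 was among them, which is no further evidence, since the set was chosen on this contrast. Without those libraries the interaction turned to -0.55 for Gli3, -0.25 for Smo and 0.063 for Ptch1, and the inhibitor difference to 0.70 for Smo and -0.16 for Shh in WT and -0.27 for Hhip in KO. Sufu in WT was -0.012 with DESeq2, -0.013 with RLE size factors, -0.000472 with library totals and -0.023 with no filter, where Shh in WT was -0.00148. With the cell line as a replicate block in the inhibitor contrasts, Smo in WT was 0.10. The genotype contrasts were blocked by replicate number, which WT and KO lines share only as a number (r of deviations -0.692 to -0.103). Neither block changed a call. Leaving out 1 library moved the WT inhibitor difference from -0.012 to 1.35 for Gli1, -0.016 to 0.36 for Gli2, -0.345 to 0.79 for Gli3, -0.49 to 0.695 for Smo, -0.12 to 0.12 for Sufu and -0.16 to 0.22 for Shh, that of Hhip in KO from -0.28 to 0.24, and the Ptch1 interaction from -0.30 to 0.058. Low Gli1 counts limit its precision.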
